A study of Mus musculus with 12 samples.

Results

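A list of 10 liver genes that answer to insulin, to the FOXO transcription factors or to glucocorticoids was followed across both injections and both diets. They are Igfbp1, Irs2, Insr, Fkbp5, Tsc22d3, Per1, Klf9, Klf15, Sgk1 and Nr3c1. Each was read from the probe set that names that gene alone, and all 10 of 10 were measured, among 22180 genes on the array. Each has 1 such probe set. A further probe set that names Irs2 together with a second gene was left out.

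The 12 samples were liver RNA of male mice aged 2 months, of strain C57Bl/6N, homozygous for floxed p53 alleles (p53 fl/fl, Trp53tm1Brn). The controls carry the floxed alleles too. An adenovirus given by tail vein carried either Cre recombinase (Adeno-Cre), which cuts out the floxed part of p53 in the cells it infects, or green fluorescent protein (Adeno-GFP). The diet began 3 days later, when food was withdrawn for 24 h or left freely available, which gave 4 groups of 3 arrays: Adeno-GFP fed, Adeno-GFP fasted, Adeno-Cre fed and Adeno-Cre fasted. Virus cargo and p53 loss change together between the injections and cannot be told apart. Trp53 was not analysed here, so the labels were not checked on the targeted gene. Mice were housed in a cycle of 12 h light and 12 h dark, and the hour at which each liver was taken is not given in the sources used here.

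As background, insulin released after a meal acts through its receptor and the adaptor proteins IRS1 and IRS2 to activate the kinase AKT, which keeps FOXO factors out of the nucleus. When insulin falls in fasting, FOXO1 enters the nucleus of hepatocytes and raises genes such as Igfbp1 and Irs2. Fasting also raises circulating glucocorticoids, which bind the glucocorticoid receptor, the product of Nr3c1. That receptor then binds DNA and induces a set of genes in many tissues, among them Fkbp5, Tsc22d3, Per1, Klf9 and Sgk1.

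All values are deposited log2 expression levels, so a difference of 1 is a doubling. Array medians lay between 6.26 and 6.33, and the correlation between any pair of replicates was 0.991 to 0.994. The 9 measured hepatocyte markers had means of 9.90 to 13.47 over the 12 arrays, all above the array medians, as the liver label requires. Of the markers of cholangiocytes, lymphocytes, neutrophils with monocytes, and adrenal tissue, 4 of 6, 7 of 9, 5 of 8 and 3 of 4 averaged under the lowest array median. Of the 10 Kupffer, 10 endothelial and 10 stellate markers 0 did, so a level above it was not particular to hepatocyte markers. In bulk liver, fewer cells of a type and less RNA per cell cannot be told apart. The labels number the samples of a group without saying that each is a separate animal, so the p-values reflect variation among these arrays, which may be technical, and their number limits the precision.

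Promoter sequence is shown first for the 4 genes whose windows held a match to letters known from insulin, FOXO or clock control and whose fasting change is described most closely below. RefSeq promoter windows (GRCm38.p6, 250 bases before to 50 after a gene's start) were found for 8 of the 10 genes, 16 windows in all; Insr and Nr3c1 are named only. The letters searched, on both strands, were CAAAACA (of insulin response elements), GTAAACA (a FOXO site), ACANNNTGT (the inner letters of the glucocorticoid receptor palindrome), CACGTG (the E-box bound by clock factors), TGACGTCA (the full CREB site) and TGACG (its first part, which lies inside the full site). The stretches below run 5′ to 3′ along the gene's own strand, with the named match in capitals.
Igfbp1, chr11:7197627-7197726, plus strand, from 160 to 61 bases before the start, CAAAACA in capitals: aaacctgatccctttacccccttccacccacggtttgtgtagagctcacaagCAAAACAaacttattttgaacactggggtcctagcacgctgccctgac
Irs2, chr8:11008930-11009029, minus strand, from 100 to 1 bases before the start, CAAAACA in capitals as it reads on the opposite strand: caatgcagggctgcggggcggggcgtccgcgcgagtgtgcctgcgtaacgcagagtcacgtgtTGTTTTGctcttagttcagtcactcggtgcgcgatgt
Klf9, chr19:23141076-23141175, plus strand, from 150 to 51 bases before the start, GTAAACA in capitals: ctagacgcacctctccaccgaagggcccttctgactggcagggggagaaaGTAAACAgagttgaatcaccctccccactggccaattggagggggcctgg
Fkbp5, chr17:28486260-28486359, minus strand, beginning 210 bases before the start, CACGTG in capitals: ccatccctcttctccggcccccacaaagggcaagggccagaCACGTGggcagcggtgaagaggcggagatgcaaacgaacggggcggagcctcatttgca

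In the Igfbp1 window the CAAAACA letters began 108 bases before the start. Irs2 held the same letters 37 bases before its start, beside a CACGTG that began 44 bases before it and did not overlap them. CAAAACA occurred in 2 of the 16 windows and in 6.28% of all 32851 promoter windows. GTAAACA was matched in 1 of the 16, that of Klf9, 100 bases before its start, against 3.65% of all windows. CACGTG was found in 5 of the 16, of 5 genes (Fkbp5, Irs2, Klf15, Per1 and Sgk1), and in 7.15% of all windows. The Fkbp5 match began 169 bases before the start, and that of Per1 166 bases before 1 of its 2 starts. ACANNNTGT was matched in 2 of the 16, both among the 6 windows of Sgk1, and in 6.85% of all windows. TGACGTCA was in none of the 16 windows (1.79% of all) and TGACG in 6 of them, of 5 genes (20.8% of all). A match describes letters in this window only and is no evidence of binding.

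Fasting raised 2 of the 10 genes, Klf9 and Fkbp5, after both injections. Klf9 encodes a Krüppel-like zinc finger factor induced by glucocorticoids, and Fkbp5 an immunophilin that binds the HSP90 complex of the glucocorticoid receptor and lowers its hormone affinity. Averaged over injections, Fkbp5 was 1.66-fold and Klf9 1.54-fold higher in fasted mice. Nr3c1, the receptor gene itself, was 0.86 times its fed level. After Adeno-GFP, 2 of 10 were called higher and 0 lower by limma (adjusted p under 0.05 over all genes), where 1.2% of all genes were called higher and 1.87% lower. After Adeno-Cre, again 2 were higher and 0 lower, where 1.5% of all genes were higher and 1.17% lower. Averaged over injections, 2 were higher and 1 lower, against 4.02% and 4.32% of all genes. Without overlap between the arrays, 4 of 10 genes were higher in fasted mice after Adeno-GFP (11.1% of all genes), and after Adeno-Cre 3 were higher (11.3%) and 1 lower (9.81%). The median change of the 10 genes was 0.28 after Adeno-GFP and 0.23 after Adeno-Cre, beside 0.01 and 0.00 over all genes.

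**Figure D1:**
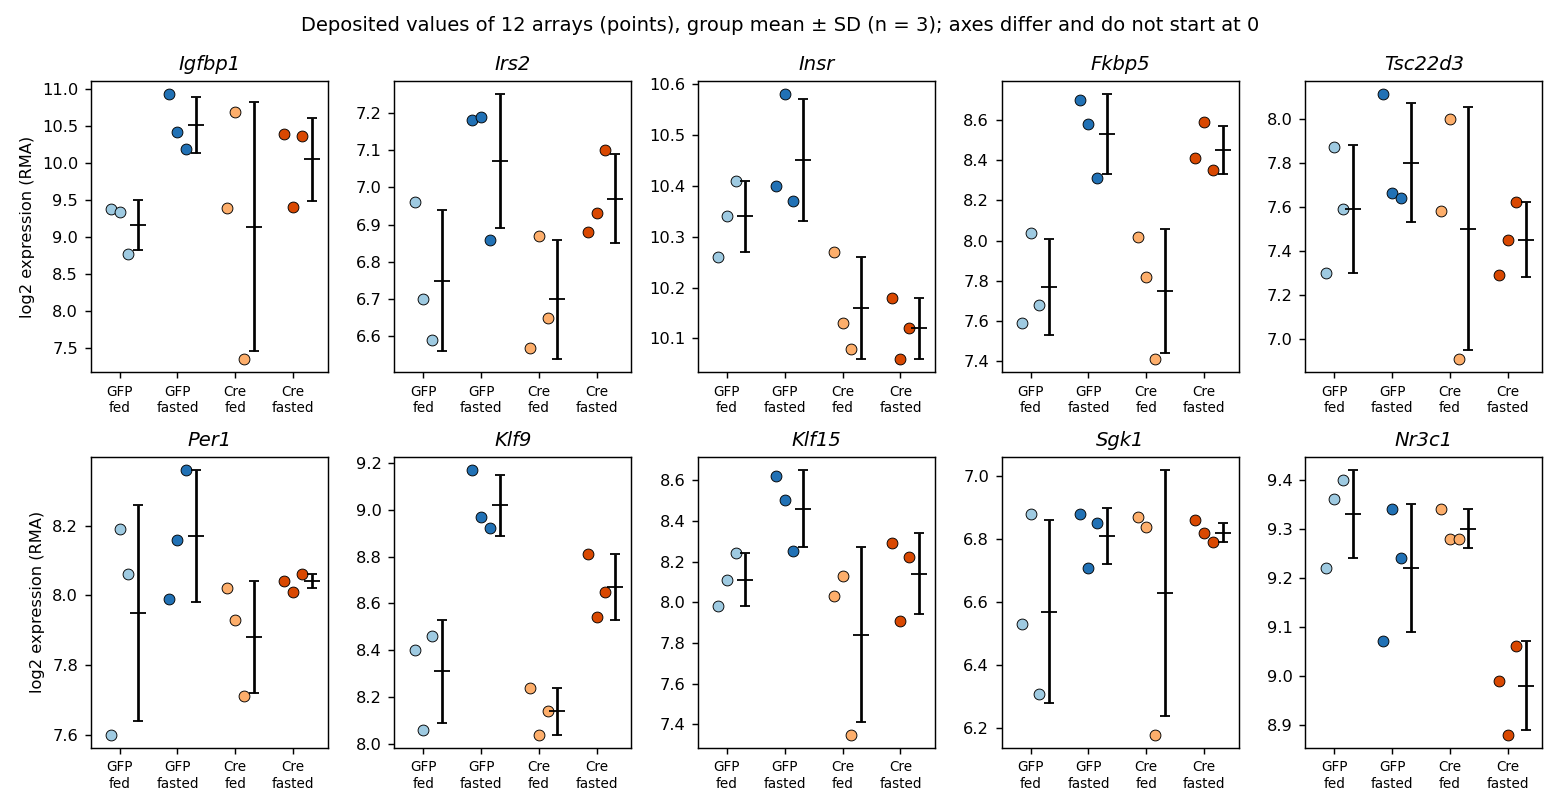
Deposited log2 level of each of the 10 genes on every array (points, replicates 1 to 3 from left to right) in the 4 groups, with the group mean ± SD (n = 3) beside them; the vertical axes differ between panels and do not start at 0. All fasted points of Fkbp5 (8.31 to 8.70) and Klf9 (8.54 to 9.17) lie above all fed points (7.41 to 8.04 and 8.04 to 8.46), while the Adeno-Cre fed points of Igfbp1 spread from 7.35 to 10.69.

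The insulin and FOXO arm is taken first. Igfbp1 encodes a secreted protein that binds insulin-like growth factors, and its liver transcript is a textbook target that insulin represses. Its log2 levels (probe set 17247208) were 9.38, 9.34 and 8.77 in Adeno-GFP fed livers and 10.93, 10.42 and 10.19 in Adeno-GFP fasted livers. In Adeno-Cre fed livers they were 9.39, 10.69 and 7.35, and in Adeno-Cre fasted livers 10.39, 9.40 and 10.36. The Adeno-GFP groups did not overlap, whereas the Adeno-Cre fed group reached from the lowest value of the series to above every Adeno-Cre fasted value.

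The difference after Adeno-GFP was 1.35 (SE 0.61, 2.55-fold, 95% interval 0.01 to 2.68), with a limma adjusted p of 0.294. After Adeno-Cre it was 0.91 (SE 0.61, interval -0.43 to 2.24, adjusted p = 0.522). Averaged over injections it was 1.13 (SE 0.43, adjusted p = 0.145). None of these passed. Igfbp1 had a pooled SD within groups of 0.92, where the median gene had 0.14. With only the Adeno-GFP arrays fitted, its fasting change of 1.35 had an adjusted p of 0.0292. Without Adeno-Cre fed replicate 2 the average change was 1.51 (adjusted p = 0.0201). Without Adeno-Cre fed replicate 3 the change after Adeno-Cre was 0.01 (adjusted p = 0.996) and the average 0.68 (adjusted p = 0.171). Without replicate 2 of that group instead, the change after Adeno-Cre was 1.68.

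Irs2 encodes the insulin receptor substrate that dominates in the fasted liver. Its log2 levels (probe set 17507374) were 6.96, 6.70 and 6.59 in Adeno-GFP fed and 7.18, 7.19 and 6.86 in Adeno-GFP fasted livers. They were 6.57, 6.87 and 6.65 in Adeno-Cre fed and 6.88, 6.93 and 7.10 in Adeno-Cre fasted livers. Fasted values lay above fed values after Adeno-Cre, with 6.87 the highest fed and 6.88 the lowest fasted array, and overlapped after Adeno-GFP.

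The change of Irs2 was 0.33 (SE 0.12, adjusted p = 0.206) after Adeno-GFP and 0.27 (SE 0.12, adjusted p = 0.316) after Adeno-Cre. Averaged, it was 0.30 (SE 0.09, 1.23-fold, interval 0.11 to 0.49), and its limma adjusted p of 0.0587 did not pass. It passed without Adeno-Cre fed replicate 2 (adjusted p = 0.0443), Adeno-GFP fasted replicate 3 (0.0338) or Adeno-GFP fed replicate 1 (0.0355). It also passed with dim genes left out (0.0299) and with a trended and robust variance prior (0.0412).

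Insr encodes the insulin receptor. Its log2 levels (probe set 17507057) were 10.26, 10.34 and 10.41 in Adeno-GFP fed and 10.40, 10.58 and 10.37 in Adeno-GFP fasted livers. They were 10.27, 10.13 and 10.08 in Adeno-Cre fed and 10.18, 10.06 and 10.12 in Adeno-Cre fasted livers. The arrays of 1 group stayed within 0.21 of each other, and the 2 diets overlapped after each injection. The fasting change was 0.11 (SE 0.08, interval -0.07 to 0.30, adjusted p = 0.563) after Adeno-GFP and -0.04 (interval -0.22 to 0.14, adjusted p = 0.866) after Adeno-Cre. These intervals hold changes of up to 1.23-fold after Adeno-GFP.

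**Figure D2:**
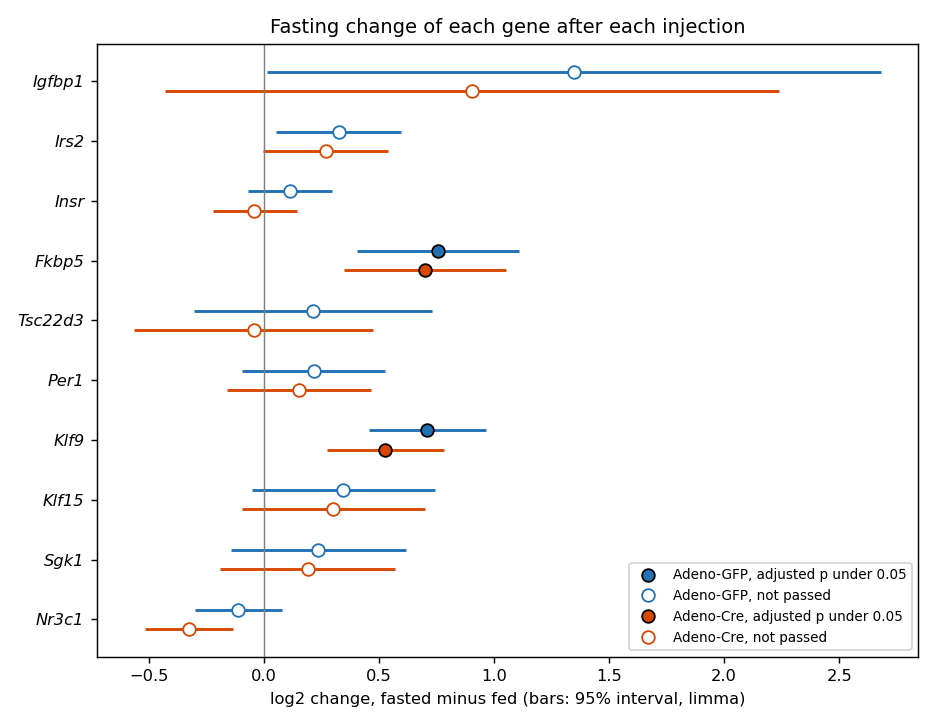
Log2 change from fed to fasted (horizontal axis) of each of the 10 genes after Adeno-GFP (blue) and Adeno-Cre (orange), with 95% intervals from limma; filled points passed an adjusted p of 0.05 over all genes. Only Fkbp5 and Klf9 are filled, after both injections, and Igfbp1 has the largest point estimates (1.35 and 0.91) with the widest intervals.

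In the glucocorticoid arm, the receptor gene Nr3c1 comes first. Its log2 levels (probe set 17353985) were 9.22, 9.36 and 9.40 in Adeno-GFP fed and 9.07, 9.34 and 9.24 in Adeno-GFP fasted livers. They were 9.34, 9.28 and 9.28 in Adeno-Cre fed and 8.99, 8.88 and 9.06 in Adeno-Cre fasted livers. Every Adeno-Cre fasted array lay below all arrays of the other groups, which overlapped with each other.

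Averaged over injections Nr3c1 fell by 0.22 with fasting (SE 0.06, limma adjusted p = 0.0496). The change was -0.11 (SE 0.09, adjusted p = 0.594) after Adeno-GFP and -0.33 (SE 0.09, adjusted p = 0.0748) after Adeno-Cre, and the difference between these was not called (-0.22, SE 0.12, adjusted p = 0.733). The change after Adeno-Cre was called with dim genes left out (adjusted p = 0.0311) and with a trended and robust prior (0.0296). Of the 12 fits that each dropped an array, 9 lost the average call (adjusted p = 0.0799 to 0.108); the 3 that kept it dropped Adeno-Cre fasted replicate 3, Adeno-GFP fasted replicate 2 or Adeno-GFP fed replicate 1. It was also lost with replicate number as a block (adjusted p = 0.065), with arrays normalised again by quantiles (0.0662) and with all probe sets tested (0.0916).

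Fkbp5 (probe set 17342868) had log2 levels of 7.59, 8.04 and 7.68 in Adeno-GFP fed and 8.70, 8.58 and 8.31 in Adeno-GFP fasted livers. It had 8.02, 7.82 and 7.41 in Adeno-Cre fed and 8.41, 8.59 and 8.35 in Adeno-Cre fasted livers. All 6 fasted arrays lay above all 6 fed arrays, as was true of 2 of the 10 genes and of 2.21% of all genes. In the order of group means, Adeno-GFP fasted (8.53 ± 0.20, SD, n = 3) and Adeno-Cre fasted (8.45 ± 0.12) did not differ beyond their spread, nor did Adeno-GFP fed (7.77 ± 0.24) and Adeno-Cre fed (7.75 ± 0.31).

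Fkbp5 rose with fasting by 0.76 after Adeno-GFP (SE 0.16, 1.69-fold, limma adjusted p = 0.0266) and by 0.70 after Adeno-Cre (SE 0.16, 1.62-fold, adjusted p = 0.0408). Averaged, the rise was 0.73 (SE 0.11, interval 0.48 to 0.98, adjusted p = 0.00218), and this call was kept under all 19 alternatives run. The call after Adeno-GFP was lost without Adeno-GFP fasted replicates 1 or 2 or Adeno-GFP fed replicates 1 or 3 (adjusted p = 0.0783 to 0.0984). Testing of all probe sets lost it too (0.0704). The call after Adeno-Cre was lost without any 1 of Adeno-Cre fasted replicates 1, 2 and 3, Adeno-Cre fed replicates 2 and 3, Adeno-GFP fasted replicate 2 and Adeno-GFP fed replicate 3 (adjusted p = 0.0559 to 0.14). It was also lost with each array centred on its median (0.0509), with only the groups compared (0.0867) and with all probe sets tested (0.0962).

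Klf9 (probe set 17358214) had log2 levels of 8.40, 8.06 and 8.46 in Adeno-GFP fed and 9.17, 8.97 and 8.92 in Adeno-GFP fasted livers. It had 8.24, 8.04 and 8.14 in Adeno-Cre fed and 8.81, 8.54 and 8.65 in Adeno-Cre fasted livers. Again all 6 fasted arrays exceeded all 6 fed arrays. The group means ran from Adeno-GFP fasted (9.02 ± 0.13) through Adeno-Cre fasted (8.67 ± 0.14) and Adeno-GFP fed (8.31 ± 0.22) to Adeno-Cre fed (8.14 ± 0.10), and of these neighbours the fed groups overlapped.

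Klf9 rose with fasting by 0.71 after Adeno-GFP (SE 0.12, 1.64-fold, limma adjusted p = 0.00747), a call kept under all 20 alternatives run. It rose by 0.53 after Adeno-Cre (SE 0.12, 1.44-fold, adjusted p = 0.0338). The latter call was lost without any 1 of the 6 Adeno-Cre arrays (adjusted p = 0.0586 to 0.139). It was lost too with only the groups compared (0.0598) and with all probe sets tested (0.0807). The average rise was 0.62 (SE 0.08, adjusted p = 0.000867) and was kept under all 19 alternatives.

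Klf15, a Krüppel-like factor of amino acid breakdown and glucose production, had log2 levels (probe set 17460826) of 7.98, 8.11 and 8.24 in Adeno-GFP fed and 8.62, 8.50 and 8.25 in Adeno-GFP fasted livers. It had 8.03, 8.13 and 7.35 in Adeno-Cre fed and 8.29, 7.91 and 8.22 in Adeno-Cre fasted livers. The Adeno-GFP groups were separate by a narrow gap and the Adeno-Cre groups overlapped. The change was 0.35 (SE 0.18, adjusted p = 0.38) after Adeno-GFP and 0.30 (SE 0.18, adjusted p = 0.461) after Adeno-Cre, and 0.06 in the latter without Adeno-Cre fed replicate 3. Neither passed.

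Tsc22d3 encodes GILZ, a leucine zipper protein through which glucocorticoids restrain inflammation. Its log2 levels (probe set 17544939) were 7.30, 7.87 and 7.59 in Adeno-GFP fed, 8.11, 7.66 and 7.64 in Adeno-GFP fasted, 7.58, 8.0 and 6.91 in Adeno-Cre fed and 7.29, 7.45 and 7.62 in Adeno-Cre fasted livers. Fed and fasted values overlapped after both injections. The changes were 0.21 (SE 0.24, interval -0.30 to 0.73, adjusted p = 0.724) and -0.04 (SE 0.24, interval -0.56 to 0.48, adjusted p = 0.954). Averaged over injections the change was 0.09 (SE 0.17, interval -0.28 to 0.45, adjusted p = 0.833). Without Adeno-Cre fed replicate 3 this average turned to -0.062 and the change after Adeno-Cre was -0.34.

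Per1, a clock gene that glucocorticoids also induce, had log2 levels (probe set 17251527) of 7.60, 8.19 and 8.06 in Adeno-GFP fed, 7.99, 8.16 and 8.36 in Adeno-GFP fasted, 8.02, 7.93 and 7.71 in Adeno-Cre fed and 8.04, 8.01 and 8.06 in Adeno-Cre fasted livers. Sgk1, a kinase of ion transport induced by glucocorticoids and insulin signalling, had 6.53, 6.88 and 6.31, then 6.88, 6.71 and 6.85, then 6.87, 6.84 and 6.18, and 6.86, 6.82 and 6.79 in the same order of groups (probe set 17232055). For both genes the fed arrays spread more widely than the fasted ones, and the diets overlapped. The average fasting change was 0.19 (SE 0.10, adjusted p = 0.328) for Per1 and 0.21 (SE 0.12, adjusted p = 0.357) for Sgk1. Without Adeno-Cre fed replicate 3 the average was 0.14 for Per1 and 0.10 for Sgk1, and the changes after Adeno-Cre were 0.066 and -0.035.

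Between the arrays of 1 group these genes moved unevenly. In the Adeno-Cre fed group, replicate 3 held the lowest value of 7 of the 10 genes and the highest of 0. In the Adeno-GFP fasted group, replicate 3 was the lowest for 7 and the highest for 1. Over all genes, Adeno-Cre fed replicate 3 deviated from its group mean by a root mean square of 0.13, and the 12 arrays by 0.13 to 0.16.

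The second comparison asks whether the fasting response of these genes differed between the injections. The fasting change was lower after Adeno-Cre than after Adeno-GFP for 10 of the 10 genes, by 0.04 (Klf15) to 0.44 (Igfbp1), with a median difference of -0.11 beside 0.00 over all genes. Without Adeno-Cre fed replicate 3 the differences of these 2 genes were -0.29 (Klf15) and -1.34 (Igfbp1). In the same contrast 9 of 10 Kupffer markers (median -0.35) and 5 of 6 cholangiocyte markers (-0.29) were negative, 9 of 10 endothelial markers were positive (0.24), and limma called 0 of each. In the other marker lists 7 of 9 lymphocyte (-0.16), 6 of 9 hepatocyte (-0.01) and 6 of 10 stellate markers (-0.01) were negative. So were 4 of 8 neutrophil and monocyte (-0.02) and 3 of 4 adrenal markers (-0.13). Their part in the lower fasting changes was not tested. No single difference passed: limma called 0 of 10, 0 had an unadjusted p under 0.05 (7.56% of all genes), and 0.00451% of all genes, which is 1 gene, were called. For Fkbp5 the difference was -0.06 (SE 0.23, interval -0.56 to 0.44, adjusted p = 0.969) and for Klf9 -0.18 (SE 0.17, interval -0.54 to 0.18, adjusted p = 0.826). These intervals include a fasting change after Adeno-Cre smaller by 0.56 in Fkbp5 and by 0.54 in Klf9. Leaving out 1 array turned the sign for Fkbp5, Igfbp1, Irs2, Klf15, Per1 and Sgk1.

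The third comparison is that of Adeno-Cre with Adeno-GFP at the same diet. Point estimates were negative for 9 of 10 genes in each diet, and Insr fell when diets were averaged. In fasted livers the arrays of Insr, Klf9, Tsc22d3 and Nr3c1 after Adeno-Cre all lay below those after Adeno-GFP, 4 of 10 genes where 10.9% of all genes did so. In fasted mice limma called 0 of 10 genes, where 2.75% of all genes were called, and 3 had an unadjusted p under 0.05 (16.7% of all genes). In fed mice it called 0 of 10, where 1.49% were called, and 0 had an unadjusted p under 0.05 (12.4% of all genes). Averaged over diets it called 1 lower and 0 higher, where 2.03% of all genes were lower and 3.55% higher. The median change of the 10 genes was -0.28 in fasted mice and -0.06 in fed mice, beside -0.03 and -0.02 over all genes. The fasting and injection comparisons share arrays, so these values are not independent of the fasting changes above. Nor are the signs of the 10 genes independent of each other.

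**Figure D3:**
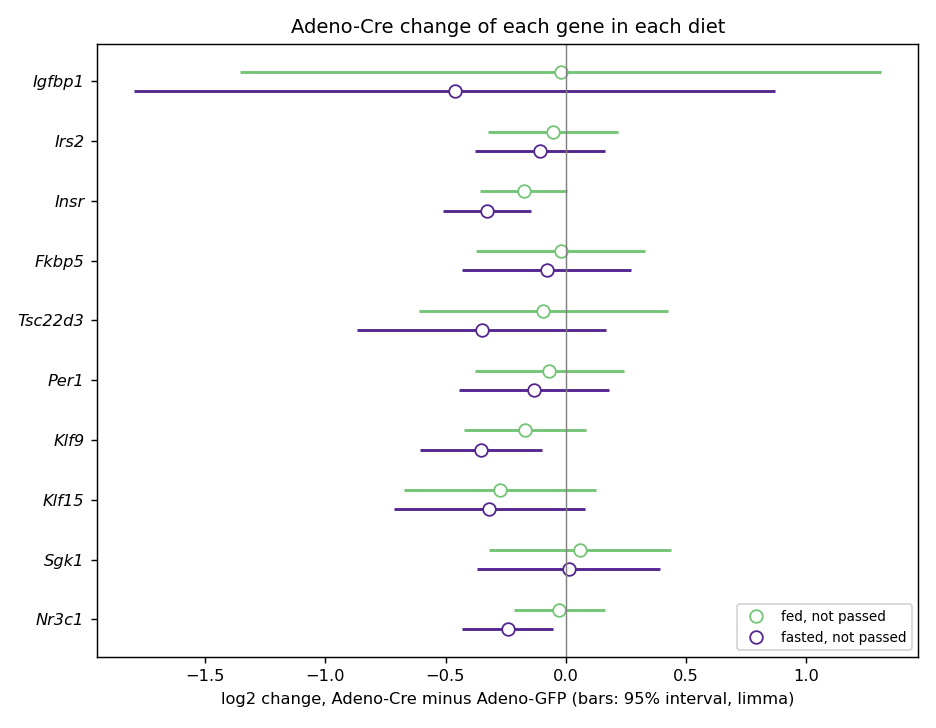
Log2 change from Adeno-GFP to Adeno-Cre (horizontal axis) of each of the 10 genes in fed (green) and fasted (purple) mice, with 95% intervals from limma; no point passed an adjusted p of 0.05. Intervals of Insr, Klf9 and Nr3c1 in fasted mice lie below 0, with estimates of -0.33, -0.35 and -0.24.

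Insr fell by 0.25 after Adeno-Cre when diets were averaged (SE 0.06, 0.84 times the Adeno-GFP level, limma adjusted p = 0.0276). The 6 Adeno-Cre arrays ran from 10.06 to 10.27 and the 6 Adeno-GFP arrays from 10.26 to 10.58, so they overlapped by 1 array on each side. The change was -0.33 in fasted (SE 0.08, adjusted p = 0.0611) and -0.18 in fed mice (SE 0.08, adjusted p = 0.427). Dropping Adeno-GFP fed replicate 2 or 3 raised the adjusted p of the average to 0.0522 or 0.0746, and dropping Adeno-GFP fasted replicate 2 raised it to 0.0643. On the Adeno-Cre side, dropping fed replicate 2 or 3 gave 0.0645 or 0.0721 and dropping fasted replicate 2 gave 0.0716, so that 6 of 12 such fits lost the call. It was also lost with replicate number as a block (0.051) and with all probe sets tested (0.0596). In fasted mice the fall was called with dim genes left out (0.0254), with arrays normalised again by quantiles (0.0456) and with a trended and robust prior (0.0145).

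Markers of other liver cells were read in the same contrast. Averaged over diets, 10 of 10 Kupffer markers, 10 of 10 endothelial markers and 10 of 10 stellate markers had negative changes, with medians of -0.22, -0.18 and -0.20. By diet, 5 of 10 Kupffer markers were negative in fed (median 0.00) and 10 of 10 in fasted mice (-0.38). Of the endothelial markers 10 of 10 were negative in fed (-0.31) and 7 of 10 in fasted mice (-0.07), and of the stellate markers 9 of 10 (-0.20) and 10 of 10 (-0.22). In the average limma called 0, 0 and 2 of them lower, where 2.03% of all genes were lower. The 2 were Reln (-0.43) and Rgs5 (-0.23). Mean marker levels per array ran from 7.31 to 8.04 after Adeno-Cre and 7.68 to 8.26 after Adeno-GFP for Kupffer cells. They ran from 8.31 to 8.83 and 8.51 to 8.96 for endothelium, and from 7.93 to 8.31 and 8.21 to 8.49 for stellate cells. Of 9 hepatocyte markers 7 were negative in the average (median -0.04, beside -0.03 over all genes), with 0 of 9 called. By diet, 7 were negative in fed (-0.03) and 7 in fasted mice (-0.04). In fasted mice the Adeno-Cre arrays of 4 of the 9 all lay below the Adeno-GFP arrays and those of 0 above, where 10.9% of all genes lay below. In other lists Krt7, a cholangiocyte marker, fell by 0.37, while Gzma, of cytotoxic lymphocytes, rose by 0.68 and Ly6c2, of inflammatory monocytes, by 0.73. Of 9 lymphocyte markers 4 had positive and 5 negative changes (median -0.02), of 8 neutrophil and monocyte markers 4 and 4 (-0.01), and of 6 cholangiocyte markers 1 and 5 (-0.07). The part of these markers, all named after their values were seen, in the fall of Insr was not tested.

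Klf9 changed by -0.26 (SE 0.08, interval -0.44 to -0.08, adjusted p = 0.0962) averaged over diets, which did not pass. It passed without Adeno-GFP fed replicate 2 (-0.32, adjusted p = 0.0267), with replicate number as a block (adjusted p = 0.0416) and with dim genes left out (0.049). Klf15 changed by -0.30 (SE 0.13, adjusted p = 0.231), Tsc22d3 by -0.22 (SE 0.17, adjusted p = 0.516) and Nr3c1 by -0.13 (SE 0.06, adjusted p = 0.259). Fkbp5, which rose with fasting, had a change of -0.05 (SE 0.11, interval -0.30 to 0.20, adjusted p = 0.855). Igfbp1 (-0.24, interval -1.18 to 0.70), Irs2 (-0.08), Per1 (-0.10) and Sgk1 (0.04) did not pass either, with adjusted p of 0.806, 0.669, 0.639 and 0.906.

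The wider pathways show where these genes stand. Among 27 measured genes of insulin signalling, 1 rose and 2 fell with fasting averaged over injections, where 4.02% of all genes rose and 4.32% fell, so the list's counts were near those of all genes. Its median was 0.00 beside 0.01 over all genes. Cblb, a ubiquitin ligase of receptor signalling, rose by 0.35 (SE 0.05, limma adjusted p = 0.000785), from 8.43 to 8.50 in the fed to 8.76 to 8.86 in the fasted arrays. Pik3r1, the regulatory subunit of PI 3-kinase, fell by 0.27 (adjusted p = 0.0208) and Pik3cb, a catalytic subunit, by 0.26 (adjusted p = 0.0384). Of the 12 fits that each dropped an array, 3 lost the call of Pik3r1, those that dropped Adeno-GFP fasted replicate 3 (0.0507), Adeno-Cre fed replicate 1 (0.0523) or Adeno-Cre fasted replicate 1 (0.0534). For Pik3cb 9 lost it (up to 0.0929), all except those that dropped Adeno-Cre fasted replicate 2, Adeno-GFP fasted replicate 3 or Adeno-GFP fed replicate 3. The call of Pik3cb was also lost with the block (0.0513) and with all probe sets tested (0.0769). The transcript of Foxo1, named here outside the rule, changed by 0.01 (SE 0.08, adjusted p = 0.958). Adeno-Cre changed 0 of the 27 by limma averaged over diets, with 3 at an unadjusted p under 0.05 (19.5% of all genes).

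Of 27 other measured genes regulated by insulin or FOXO, 2 rose and 5 fell with fasting averaged over injections (4.02% and 4.32% of all genes), and the 5 that fell are genes of sugar and fat handling that insulin induces. Pklr, liver pyruvate kinase, fell by 0.98 (SE 0.08, limma adjusted p = 2e-05) and Fasn, fatty acid synthase, by 1.20 (SE 0.11, adjusted p = 7.77e-05). Srebf1, the transcription factor of lipogenesis, fell by 0.63 and Acaca, acetyl-CoA carboxylase, by 0.79. After Adeno-GFP these falls were 1.01 and 0.99 (adjusted p = 0.000335 and 0.00532), while after Adeno-Cre the changes of -0.24 (adjusted p = 0.258) and -0.60 (0.0658) did not pass. The difference between injections was not called for either gene (adjusted p = 0.294 and 0.723). For each of Pklr, Fasn, Srebf1 and Acaca all 6 fasted arrays lay below all 6 fed arrays. These genes were picked for the smallest p in this same contrast, so their separation adds no support. The share of all genes so separated is not given here. The other genes of this list that were called, outside the rule, were Angptl8, a fed-state hormone, which fell by 0.92, and Pdk4 and Ppargc1a, regulators of fuel use in fasting, which rose by 1.17 and 0.79. The list median was -0.01, beside 0.01 over all genes. Averaged over diets, Adeno-Cre lowered 1 of the 27 and raised 0, where 2.03% of all genes were lower and 3.55% higher. The gene lowered was Sesn1, a target of both p53 and FOXO, by 0.23 (SE 0.06, limma adjusted p = 0.045). That call was lost in 10 of the 12 fits that dropped an array (adjusted p up to 0.1), those without replicate 3 of either fasted group being the exceptions. The block (0.0688), centring of each array on its median (0.0662) and testing of all probe sets (0.0882) lost it too. By diet, Sesn1 changed by -0.37 in fasted (limma adjusted p = 0.0439) and by -0.10 in fed mice (adjusted p = 0.718). The call in fasted mice was lost in 11 of the 12 fits that dropped an array. It was lost too with only the groups compared (0.176) and under the settings just named.

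**Figure D4:**
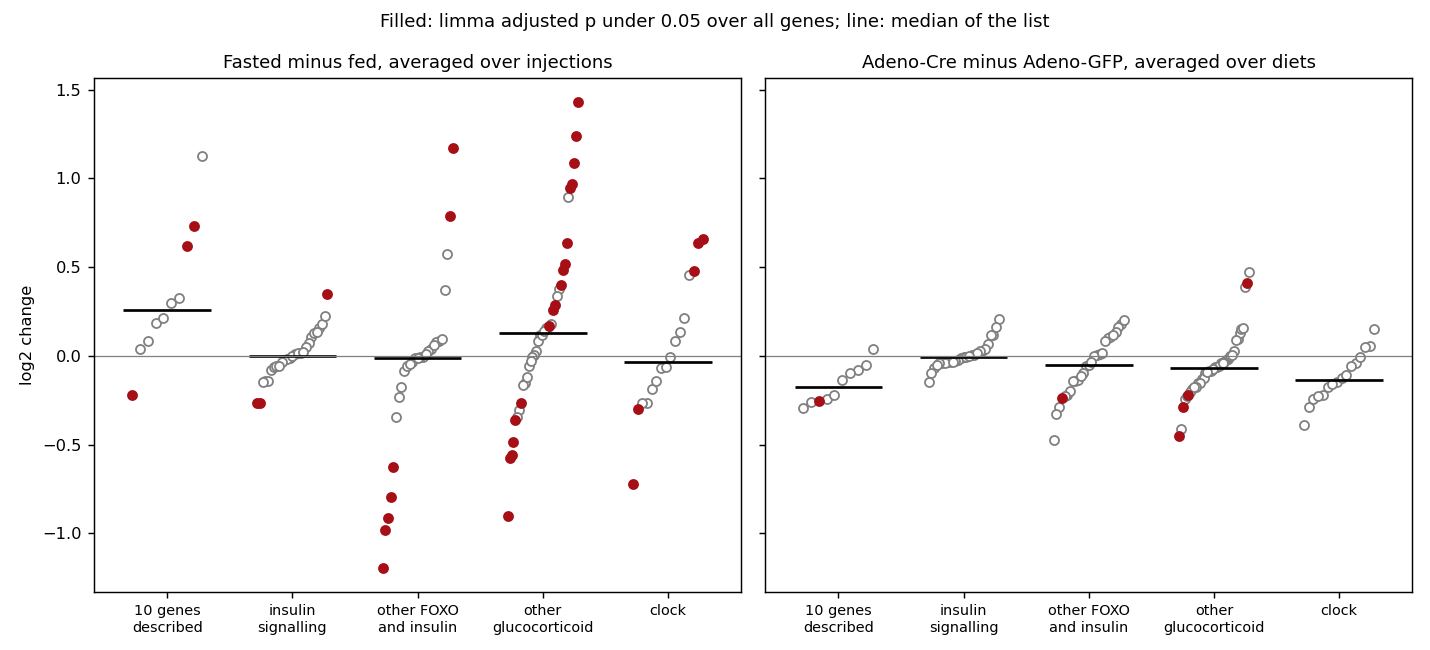
Log2 changes (vertical axis) of the 10 genes described and of 4 lists of related genes, each point a gene and the line the list's median, for fasting averaged over injections (left) and Adeno-Cre averaged over diets (right); filled points passed an adjusted p of 0.05 over all genes. On the left, 12 of 38 glucocorticoid responsive genes are filled above 0 and 6 below it, where 4.02% and 4.32% of all genes passed. On the right, 1 is filled above and 3 below, where 3.55% and 2.03% of all genes passed.

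Among 38 other genes that glucocorticoids regulate, 12 rose and 6 fell with fasting averaged over injections (4.02% and 4.32% of all genes). The list median was 0.13, beside 0.01 over all genes. Pik3r1 is on this list too. Mt1 and Mt2, the metallothioneins that bind zinc and copper, rose by 1.09 (SE 0.12, limma adjusted p = 0.000286) and 1.24 (SE 0.16, adjusted p = 0.000656). Mt1 rose after both injections, by 1.22 after Adeno-GFP and 0.96 after Adeno-Cre. The latter call was lost without Adeno-Cre fed replicate 3 (adjusted p = 0.0563) and with only the groups compared (0.0561). Mt2 rose by 1.70 after Adeno-GFP, and its change of 0.78 after Adeno-Cre did not pass (adjusted p = 0.0976). Gadd45g, a stress-induced regulator of growth, rose by 0.97 (adjusted p = 6.58e-05), by 1.53 after Adeno-GFP (adjusted p = 4.79e-05) and with a change of 0.41 after Adeno-Cre that did not pass (adjusted p = 0.0964). Serpina6, the plasma carrier of glucocorticoids, fell by 0.57 (adjusted p = 0.00164), by 0.71 after Adeno-GFP (adjusted p = 0.00899), with a change of -0.43 after Adeno-Cre that did not pass (adjusted p = 0.0893). The difference of the fasting change between injections was called for none of Mt1, Mt2, Gadd45g and Serpina6 (adjusted p = 0.834, 0.607, 0.238 and 0.744). Averaged over diets, Adeno-Cre raised 1 of the 38 and lowered 3, where 3.55% of all genes were higher and 2.03% lower. Tgm2, a transglutaminase, rose by 0.41 (SE 0.08, limma adjusted p = 0.00846). Gadd45g fell by 0.45 (SE 0.08, adjusted p = 0.00734). Outside the rule, Hsd11b1, which regenerates active glucocorticoid, fell by 0.29 and Arg1, arginase of the urea cycle, by 0.22. The change of Gadd45g was -1.01 in fasted (adjusted p = 0.000761) and 0.10 in fed mice (adjusted p = 0.81).

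Per1 and Klf9 are themselves rhythmic in liver, and clock genes were read for that reason. Of 16 measured, 3 rose and 2 fell with fasting averaged over injections (4.02% and 4.32% of all genes), with a median of -0.03. Clock rose by 0.48 (SE 0.06, limma adjusted p = 0.000776) and Ciart, a repressor of the clock, by 0.64 (SE 0.11, adjusted p = 0.00359), and Arntl, outside the rule, by 0.66. Bhlhe40 fell by 0.72 (SE 0.09, adjusted p = 0.000626) and Nr1d2, a nuclear receptor repressor of the clock, by 0.30 (adjusted p = 0.0203), a call lost without Adeno-Cre fed replicate 1 (adjusted p = 0.0517). Whether the hour of tissue collection differed between groups was not tested. Adeno-Cre changed 0 of the 16 by limma averaged over diets, with 4 at an unadjusted p under 0.05 (19.5% of all genes), and 13 of the 16 changes were negative. Among markers of other cell types, 3 of 10 stellate markers (Lrat, Col1a2 and Col3a1), 1 of 10 endothelial (Fcgr2b), 1 of 9 lymphocyte (Gzma) and 1 of 8 neutrophil and monocyte markers (Ly6c2) fell with fasting, where 4.32% of all genes fell. Of 9 hepatocyte markers 2 rose (Hnf4a and Cps1), and Cps1 was also counted among the other glucocorticoid responsive genes above. Of 10 Kupffer markers 0 were called, with 2 at an unadjusted p under 0.05, for which the share of all genes is not given here. Negative changes were seen in 6 of 10 stellate (median -0.13), 8 of 10 endothelial (-0.09), 7 of 9 lymphocyte (-0.14), 3 of 8 neutrophil and monocyte (0.09), 4 of 9 hepatocyte (0.04) and 8 of 10 Kupffer markers (-0.16). The markers called were named after their values were seen. Their part in the fasting changes of the 10 genes was not tested.

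Genes with the most similar profile were sought for the 4 genes called in any comparison, as the smallest root mean square difference of mean-centred log2 levels over the 12 arrays. Nearest to Klf9 was Dhtkd1, an enzyme of lysine and tryptophan breakdown, at 0.10, followed by Tmem62 (0.13) and Aass (0.13), the first enzyme of lysine breakdown. Dhtkd1 averaged 9.12 in Adeno-GFP fed, 9.67 in Adeno-GFP fasted, 8.77 in Adeno-Cre fed and 9.37 in Adeno-Cre fasted livers, the same order of diets within each injection as Klf9. Nearest to Fkbp5 was Abhd2, a serine hydrolase, at 0.14, then C330002G04Rik (0.16) and Gm4285 (0.18). Vegfa, the vascular growth factor, was nearest to Insr at 0.06, with Pxdc1 (0.06) and Plg, plasminogen (0.07). Alg10b (0.05), Arap2 (0.08) and Parg (0.08) were nearest to Nr3c1. These genes were picked from these same arrays for their likeness, so it is a description.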

How the data were processed

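Total RNA of 12 liver samples (200 ng, RNA integrity number above 7, per the labels' protocols) was measured on Affymetrix arrays. The authors' deposited values are on a log2 scale, and the submitters' processing notes name RMA. RMA gives arrays like distributions, which would remove a shift common to all genes, and it shrinks differences between dim probe sets. The version of the software, the probe annotation and the build used by the authors were not given in the sources used here. Of 41345 probe sets, 23521 name 1 gene in the platform annotation, 1814 several and 16010 are unlisted. Of several per gene, that with the highest mean over the 12 arrays was kept, leaving 22180 genes.

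A limma model (version 3.58.1, R 4.3.3) with 4 group means was fitted to all 12 arrays, followed by eBayes with no trend and no robust option. Within each of 7 contrasts, Benjamini-Hochberg adjustment ran over all 22180 genes, with a threshold of 0.05. The fit was tested on simulated data. The labels do not say whether equal replicate numbers share a litter, day or batch. Between arrays of equal number, deviations from the group means correlated at -0.091 to 0.147 over 18 pairs, with 3 over 0.1. These correlations cannot decide whether such arrays were paired. The 10 genes and all lists were chosen with earlier results of these data known, so their counts are descriptions. Genes named are the 10, up to 4 per list with the smallest p for fasting and up to 2 for Adeno-Cre among those called in the averaged contrasts, and the 3 nearest profiles of each of the 10 that was called; others are marked as outside this rule. Promoter letters were searched in Python 3.11.15 with pandas 2.3.3. Alternatives changed the probe sets tested, normalisation, centring, a filter on dim genes, the variance prior, the groups fitted and the replicate block, and left out each array in turn.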

Additional observations from a re-analysis of the deposited data

Results flagged for a closer look

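Fasn and Srebf1, genes of fat synthesis among the insulin responsive genes, moved in opposite directions with Adeno-Cre in the 2 diets on every array. For Fasn the 3 Adeno-Cre arrays lay below the 3 Adeno-GFP arrays in fed mice (-0.59, SE 0.15, limma adjusted p = 0.0918) and above them in fasted mice (0.32, adjusted p = 0.321). For Srebf1 the change was -0.53 in fed mice (SE 0.10, adjusted p = 0.0273) and 0.25 in fasted mice (adjusted p = 0.243). The fall of Srebf1 in fed mice lost its call without any 1 of Adeno-Cre fed replicates 1, 2 and 3 and Adeno-GFP fed replicates 2 and 3 (adjusted p = 0.0569 to 0.118). The call was also lost with only the groups compared (0.0659) and with all probe sets tested (0.0829). Tested as the difference of the fasting change between injections, the contrast was 0.91 for Fasn (SE 0.22, adjusted p = 0.538) and 0.77 for Srebf1 (SE 0.14, adjusted p = 0.294), and neither passed. None of the 10 genes described showed such opposite movement in all arrays. How many of all genes did so was not counted, so how unusual the pattern is cannot be told.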

How the results depend on the processing

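Among the 10 genes, the average fasting rise of Klf9 and Fkbp5 and the rise of Klf9 after Adeno-GFP kept their calls under every alternative run. With all probe sets tested, 1 of the 10 was called for fasting after Adeno-GFP, 0 after Adeno-Cre and 0 for Adeno-Cre averaged over diets. For fasting after Adeno-Cre, 1 was called with each array centred on its median and 0 with only the groups compared. With dim genes left out, 1 was called for Adeno-Cre in fasted mice and 2 averaged over diets, and 1 in fasted mice with quantiles or with a trended and robust prior. Leaving out 1 array gave 1 to 2 calls for fasting after Adeno-GFP, 0 to 2 after Adeno-Cre and 0 to 1 for Adeno-Cre averaged over diets. Over all genes, fasting after Adeno-GFP had 682 calls, 1091 with dim genes left out, 394 with only the groups compared, 1038 with the trended prior, 292 with all probe sets and 275 to 720 without 1 array. After Adeno-Cre the counts were 592, 983, 212, 935, 235 and 207 to 713 in that order. In fasted mice Adeno-Cre had 609, 918, 320, 939, 367 and 355 to 800, and in fed mice 331, 555, 145, 539, 59 and 31 to 362. With all probe sets, fasting averaged had 1134 calls against 1850 and Adeno-Cre averaged 765 against 1239 (824 to 1353 without 1 array). The difference of the fasting change had 1 call, 0 with quantiles, the replicate block or all probe sets, and 0 to 1 without 1 array.

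Whether equal replicate numbers pair the arrays is not known. With the replicate block, 2 of the 10 genes were called for fasting after each injection and 2 averaged. For the difference 0 were called, and for Adeno-Cre averaged 1 (Klf9 in place of Insr). Over all genes the block gave 587 calls for fasting after Adeno-GFP.

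Changes that turned sign did so only when 1 array was left out, and none was called. For fasting after Adeno-Cre the ranges were -0.078 to 0.014 (Insr), -0.34 to 0.21 (Tsc22d3), -0.035 to 0.31 (Sgk1). For fasting averaged over injections the ranges were -0.062 to 0.21 (Tsc22d3). For the difference of the fasting change the ranges were -1.34 to 0.33 (Igfbp1), -0.16 to 0.031 (Irs2), -0.23 to 0.077 (Fkbp5), -0.18 to 0.11 (Per1), -0.29 to 0.10 (Klf15), -0.27 to 0.085 (Sgk1). For Adeno-Cre in fasted mice the ranges were -0.19 to 0.006 (Fkbp5), -0.04 to 0.049 (Sgk1). For Adeno-Cre in fed mice the ranges were -0.79 to 0.88 (Igfbp1), -0.14 to 0.054 (Irs2), -0.16 to 0.15 (Fkbp5), -0.34 to 0.20 (Tsc22d3), -0.24 to 0.052 (Per1), -0.072 to 0.29 (Sgk1), -0.078 to 0.012 (Nr3c1). For Adeno-Cre averaged over diets the ranges were -0.63 to 0.21 (Igfbp1), -0.12 to 0.035 (Fkbp5), -0.029 to 0.15 (Sgk1). With 3 arrays per group, changes of genes as variable as Igfbp1 (pooled SD 0.92) had wide intervals. RMA values carry no detection call, so whether dim probe sets lay above background was not analysed here.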
